A study of Mus musculus with 11 samples.

Results

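The genes described here are 8 that encode RNA-binding proteins of germ cells: Dazl, Boll, Ddx4, Nanos3, Lin28a, Cpeb1, Ybx2 and Pum2. They were chosen by symbol, and each had 1 row among the 20389 rows of the deposited table of unique molecular identifiers (UMIs, random tags that mark each captured mRNA molecule). All 8 passed the filter on low counts and were among the 10861 genes tested. Cells came from the adult testes of 3 untreated Dazl-GFP reporter mice (per the labels, under standard housing), and every cell had been sorted as live and GFP-positive. GFP from the Dazl reporter therefore decided which cells were measured, and cells in which the reporter was silent are outside these data. Mouse 1 was processed by CEL-Seq1 in 8 libraries, mouse 2 by CEL-Seq2 in 1 library and mouse 3 by CEL-Seq2 in 2 libraries, of which 1 was sorted by a gate and 1 by index sorting. These are versions of the CEL-Seq protocol, used here within SORT-Seq. SORT-Seq counts the 3′ ends of polyadenylated mRNA from single cells in plates. The strain, the age beyond "adult" and the make of the reporter transgene are not given in the labels, and the protocol cannot be told apart from mouse 1.

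Of 1920 wells, 1448 held at least 1000 UMIs and were kept as cells (545, 321 and 582 in mice 1, 2 and 3). Their median was 16275, 9830 and 14132.5 UMIs. A total of 1213 cells (466, 288 and 459) fell into 12 stages, which were built without any of the 8 genes. Stages 2 and 3 were differentiating spermatogonia-like, stage 4 preleptotene-like, stages 6 to 8 leptotene and zygotene-like and stages 10 to 12 pachytene-like. Stages 1, 5 and 9 had no name under the naming rule. Stage 1 held the highest summed level of 10 markers of undifferentiated spermatogonia, 1098 ± 218 CPM (UMIs per 1000000 autosomal UMIs, with the SD, n = 3 mice). This sum was 213 ± 19.97 at stage 2, at most 99.7 at stages 3 to 8, and 302, 430, 404 and 292 at stages 9, 10, 11 and 12. Stage 1 had been picked as the start of the order by these same 10 markers. Its high level of them was thus set by that choice and is no separate evidence of what it is. Markers of another class led stage 1 in equal number. Stage 5 was led by Clu, Stra8, Defb19 and Cst9. Its summed level of preleptotene markers was 3352 ± 716 CPM, the highest of the 12 stages, against 1633 ± 200.5 at stage 4. Its summed level of 8 markers of Sertoli cells, the somatic cells that surround germ cells, was 529 ± 264 CPM (240 to 758 in single mice). This sum was 137 ± 22.0 at stage 1 and at most 94.96 elsewhere. Clu alone gave 288 CPM of it at stage 5, and Amh was at 0. Wt1 (16.3 against 25.6 CPM) and Rhox5 (9.16 against 11.7) were lower at stage 5 than at stage 1. Sox9, Clu, Cst12, Aard and Amhr2 were higher. For each mouse, the cells of a stage were added up, which gave 36 sums of 13 to 60 cells and 106114 to 4620320 autosomal UMIs. Levels are in CPM, the UMIs of a gene per 1000000 autosomal UMIs of the sum, given as the mean ± SD of 3 mice.

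RNA-binding proteins carry much of gene control in male germ cells, since chromatin is rebuilt and transcription is uneven while cells pass through meiosis, and many mRNAs are kept and translated later. The DAZ family (DAZL and BOLL) binds U-rich sites in 3′ ends of mRNAs and recruits poly(A)-binding protein. DDX4 is the germ cell RNA helicase of the nuage, NANOS3 and PUM2 belong to a pair of families that repress mRNAs together, and LIN28A binds the let-7 microRNA precursors. CPEB1 controls the length of poly(A) tails in the cytoplasm, and YBX2 (MSY2) packs and stores mRNA in late spermatocytes and spermatids.

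The promoters of 4 of these genes are shown because their mRNA changes between the meiotic stages: Dazl, which in CPM is highest at stage 8, Cpeb1, which in CPM is highest at stage 5, and Ddx4 and Ybx2, which are higher from stage 9 on. Each sequence is the RefSeq window (GRCm38.p6) from 250 bases before to 50 bases after the annotated start, 5′ to 3′ on the strand of the gene. Capitals mark 3 motifs searched on both strands: CNCCTCAG, known as the STRA8 motif, CCAAT, the CCAAT box, and CACGTG, an E-box.
Dazl (chr17:50293571-50293870, minus strand): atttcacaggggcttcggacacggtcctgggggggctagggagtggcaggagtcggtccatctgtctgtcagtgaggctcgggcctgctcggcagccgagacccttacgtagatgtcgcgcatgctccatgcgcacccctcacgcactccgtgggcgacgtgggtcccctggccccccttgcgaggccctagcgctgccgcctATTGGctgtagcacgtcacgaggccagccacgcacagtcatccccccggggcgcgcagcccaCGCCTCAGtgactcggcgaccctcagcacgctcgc
Cpeb1 (chr7:81454709-81455008, minus strand): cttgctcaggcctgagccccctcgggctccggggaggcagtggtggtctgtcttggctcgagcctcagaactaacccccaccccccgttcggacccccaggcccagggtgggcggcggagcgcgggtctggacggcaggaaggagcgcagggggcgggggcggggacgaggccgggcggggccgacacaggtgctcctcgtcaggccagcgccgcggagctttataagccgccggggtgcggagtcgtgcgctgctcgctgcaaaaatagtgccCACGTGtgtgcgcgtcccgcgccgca
Ddx4 (chr13:112652261-112652560, minus strand): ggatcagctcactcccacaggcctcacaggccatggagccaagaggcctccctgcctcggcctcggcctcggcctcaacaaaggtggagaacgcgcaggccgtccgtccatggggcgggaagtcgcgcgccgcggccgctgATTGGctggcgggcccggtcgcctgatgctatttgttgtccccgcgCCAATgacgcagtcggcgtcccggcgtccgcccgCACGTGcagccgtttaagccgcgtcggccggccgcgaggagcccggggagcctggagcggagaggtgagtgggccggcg
Ybx2 (chr11:69935649-69935948, plus strand): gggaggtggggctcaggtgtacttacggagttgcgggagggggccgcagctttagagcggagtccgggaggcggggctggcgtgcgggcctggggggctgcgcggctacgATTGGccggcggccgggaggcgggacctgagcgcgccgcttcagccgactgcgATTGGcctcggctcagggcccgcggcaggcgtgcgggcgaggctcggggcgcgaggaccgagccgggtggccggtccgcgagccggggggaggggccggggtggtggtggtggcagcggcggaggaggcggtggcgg
The Dazl window holds CGCCTCAG 16 bases into the transcript and an inverted CCAAT box that begins 47 bases before the start. The Cpeb1 window holds an E-box 25 bases into the transcript. In the Ddx4 window a CCAAT box and an inverted one lie 63 and 109 bases before the start, with an E-box 29 bases before it. The Ybx2 window holds inverted CCAAT boxes 87 and 140 bases before the start, and a further window of Ybx2, for another annotated start, holds the STRA8 motif.

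All 8 genes matched the RefSeq table, with 12 windows in total. The STRA8 motif was in the windows of 2 of the 8 genes (Dazl, Ybx2), against 9.12% of the 27025 genes with a window. CCAAT boxes were in those of 4 genes (Dazl, Boll, Ddx4, Ybx2), against 41.1% of genes, and E-boxes in those of 3 (Boll, Ddx4, Cpeb1), against 8.09%. Also searched were TGACGTCA, the cyclic AMP response element, in none of the 8 against 2.03% of genes, and CAACNG, a form of the MYB motif, in Boll and Pum2 against 38.3% of genes. None of these motifs overlapped in the windows shown. The motifs were chosen after the sequences had been read, and a match is a run of letters, not a bound site.

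**Figure D1:**
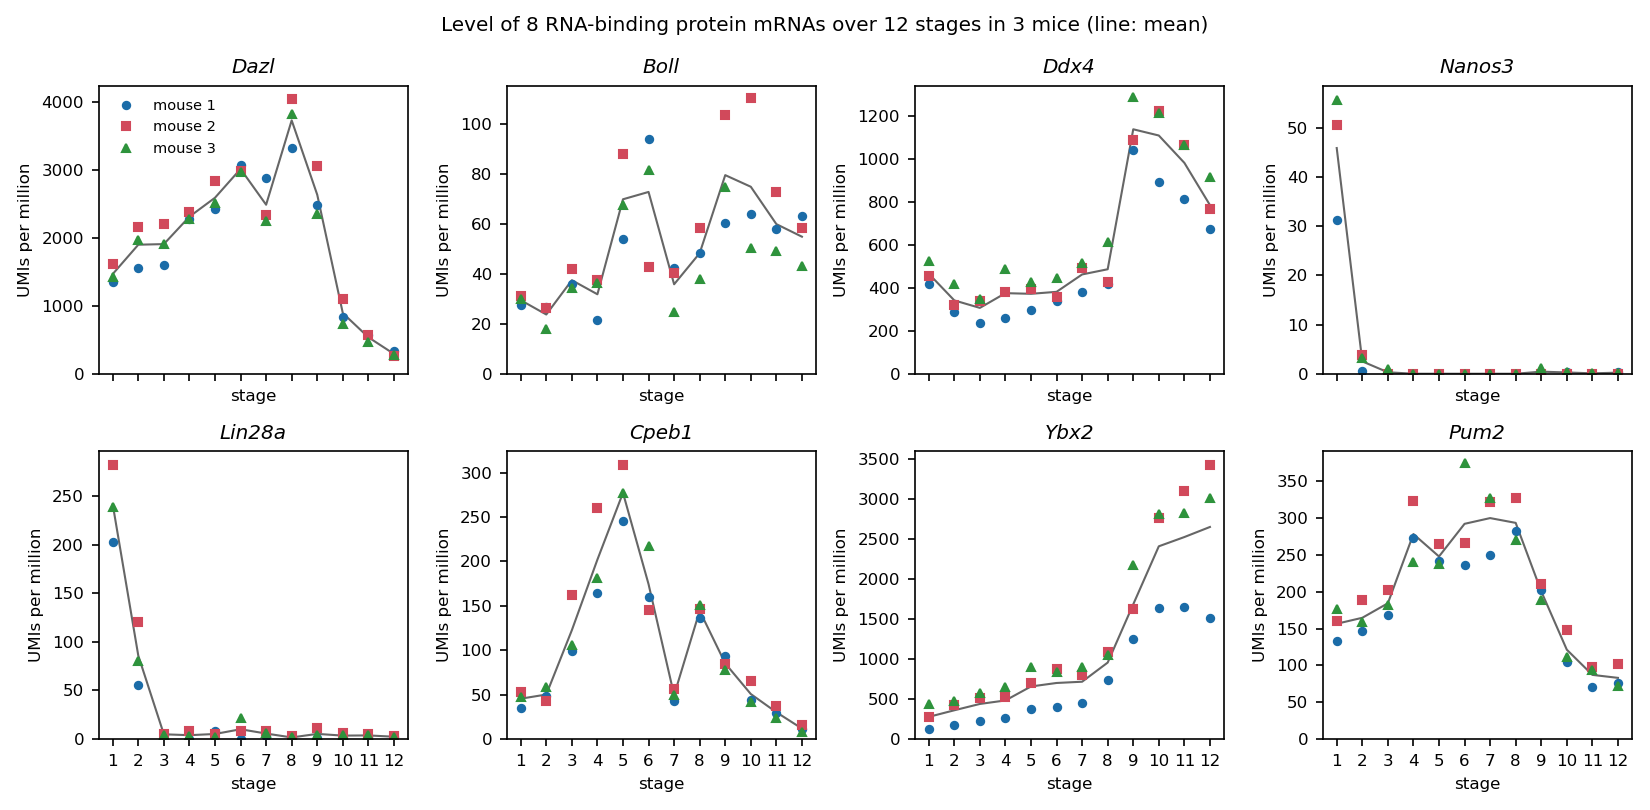
CPM (y axis, linear, from 0) at each of 12 stages (x axis) for the 8 genes; points are mice and the line is their mean. Dazl is highest at stage 8 in each of the 3 mice, Nanos3 and Lin28a lie at stages 1 and 2, Cpeb1 has a dip at stage 7, and Ddx4 and Ybx2 are higher from stage 9 on.

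Dazl, the gene of the reporter and a regulator of mRNA translation in germ cells (chr17:50279395-50293636, minus strand, GENCODE vM21, GRCm38), was in CPM highest at stage 8, of leptotene and zygotene-like cells, and lowest in the latest pachytene-like cells. At stage 1 its level was 1358, 1622 and 1425 CPM in mice 1, 2 and 3. At stage 8 it was 3323, 4050 and 3826, and at stage 12 it was 330, 263 and 283. The 3 groups of values did not overlap, and the mean went from 1469 ± 137 at stage 1 through 3733 ± 373 at stage 8 to 292 ± 34.6 at stage 12, 12.8-fold below the peak. Between the latest and the earliest stage Dazl fell by 1.95 ± 0.13 on the log2 scale (SE, edgeR adjusted p = 6.27e-17), lower in 3 of 3 mice. In single cells the median was 36.6 UMIs per 10000 at stage 8, with 24.1 at the 10th and 48.4 at the 90th percentile. In stage 12 the median was 3.04, and its 90th percentile of 5.17 lay below the 10th percentile of stage 8.

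The steps of Dazl were unequal. The level rose from stage 7 to stage 8 by 0.70 ± 0.12 on the log2 scale (edgeR adjusted p = 5.95e-05), although leaving out 1 mouse raised the adjusted p to as much as 0.0564. The largest single step of Dazl was from stage 9 to stage 10, where it fell by 1.48 ± 0.12 (edgeR adjusted p = 1.05e-11), from 2637 ± 379 to 893 ± 189 CPM. It fell again by 0.76 ± 0.12 from stage 11 to stage 12 (edgeR adjusted p = 3.96e-05). Both falls kept their call without each mouse in turn and with ERCC spike-in RNA (added RNA of known sequence) as the library size, a scale that takes the amount added to be equal in all wells of a mouse. From stage 8 to stage 9 the sign depended on the scale: -0.43 ± 0.12 in CPM (edgeR adjusted p = 0.00525) but 0.73 per ERCC UMI (edgeR adjusted p = 0.000548).

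The scale matters here because the RNA counted per cell changed along the stages. On the log2 scale and relative to stage 1, UMIs per ERCC UMI, not limited to autosomes, stood at -1.94 ± 0.24 (SD, n = 3) in stage 7 and 1.60 ± 0.30 in stage 12. A gene that keeps its number of molecules per cell therefore loses share in pachytene-like cells. Per ERCC UMI and relative to stage 1, Dazl stood at -1.20 ± 0.39 in stage 7, 0.86 ± 0.24 in stage 9 and -0.70 ± 0.41 in stage 12. On both scales the level at stage 12 was below that at stage 1 in 3 of 3 mice, while the peak lay at stage 8 in CPM and at stage 9 per ERCC UMI. Where the change from the earliest to the latest stage is computed per ERCC UMI, the median of all genes tested moves from -0.07 to 1.29 on the log2 scale, so changes on that scale are to be read relative to this median.

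**Figure D2:**
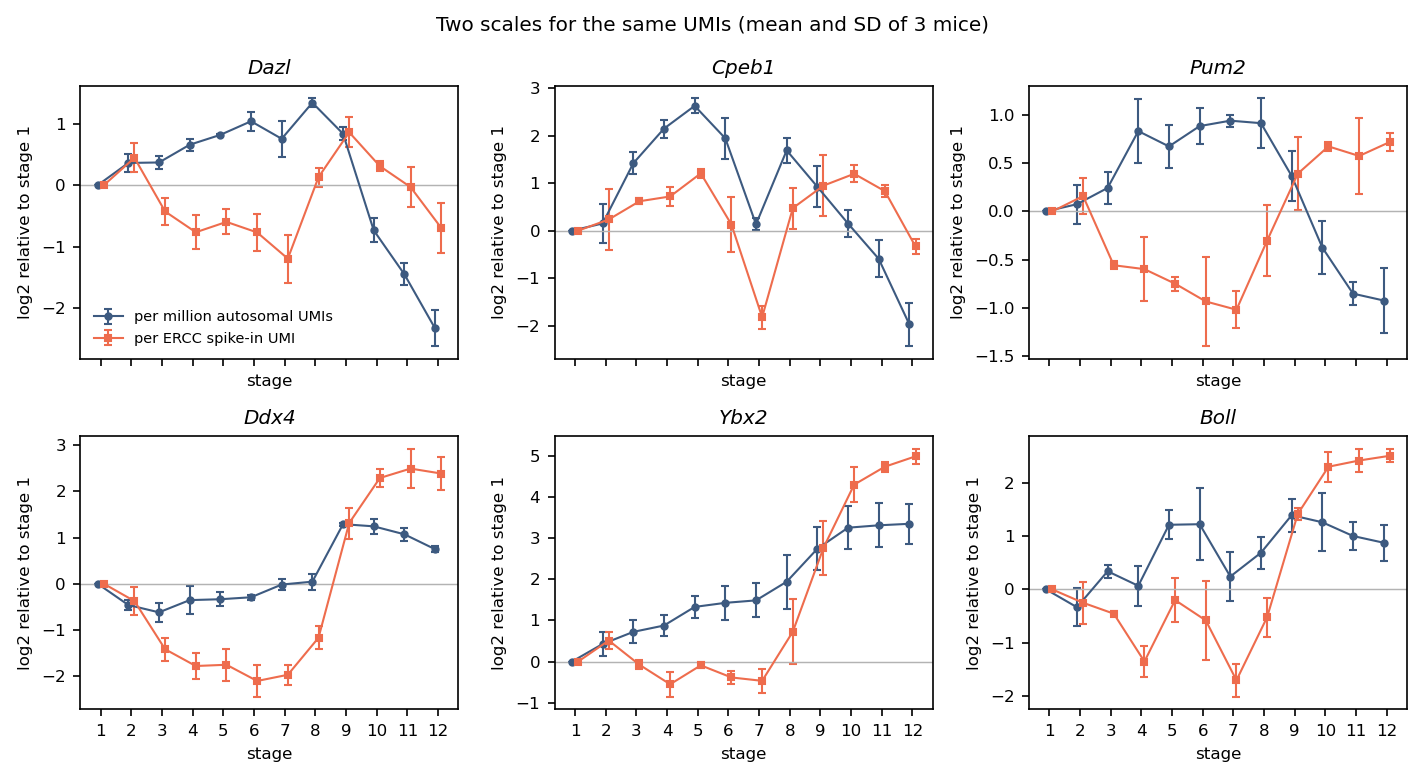
Log2 level relative to stage 1 (y axis; mean and SD of 3 mice) by stage (x axis) for 6 genes, in CPM (circles) and per ERCC spike-in UMI (squares). At stage 12, Dazl and Cpeb1 lie below stage 1 and Ddx4, Ybx2 and Boll above it on both scales, whereas Pum2 lies below stage 1 in CPM and at 0.72 above it per ERCC UMI.

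The row of eGFP, the label's reporter, gave few UMIs. It held 19, 21 and 20 UMIs in the stage cells of mice 1, 2 and 3, where Dazl held 18806, 8641 and 18580. That is 1.01, 2.43 and 1.08 eGFP UMIs per 1000 Dazl UMIs, the highest ratio being in mouse 2. At least 1 eGFP UMI was found in 57 of 1213 cells (4.70%, exact 95% confidence interval 3.58 to 6.05) and no cell had more than 2, while 1211 of the 1213 cells (99.8%) held a Dazl UMI. The eGFP row did not pass the filter on low counts, so its change along the stages was not tested. Intervals here cover counting error alone.

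Boll, the other autosomal member of the DAZ family in the mouse (chr1:55248658-55363469, minus strand), was counted at low levels and had a pair of maxima in the mean of the mice. Its level was 27.6, 31.0 and 29.9 CPM at stage 1 and 63.2, 58.5 and 43.1 at stage 12 in mice 1, 2 and 3, with no overlap. Between these stages it rose by 1.23 ± 0.21 (log2, SE, edgeR adjusted p = 2.67e-06), higher in 3 of 3 mice. It reached 72.9 ± 26.8 CPM at stage 6, lay at 35.9 ± 9.71 at stage 7, and was at 79.6 ± 22.0 in stage 9. These rest on 30, 28 and 188 UMIs over the 3 mice. Mouse 2 had no maximum at stage 6, with 88.3, 42.8 and 40.3 CPM at stages 5, 6 and 7. The step from stage 6 to 7 was -1.09 ± 0.38 (edgeR adjusted p = 0.0424) and that from stage 8 to 9 was 0.74 ± 0.23 (edgeR adjusted p = 0.0103). Leaving out 1 mouse raised these adjusted p-values to as much as 0.531 and 0.171, and with sums of at least 20 cells the first step was 0.023. Per cell, Boll was at 0.513 UMIs at stage 8 and at 4.61 in stage 12.

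Ddx4, the RNA helicase also called mouse vasa homologue (chr13:112598333-112652475, minus strand), had 1 large step, from stage 8, the last leptotene and zygotene-like stage, to the unnamed stage 9. Its level was 420, 425 and 615 CPM at stage 8 and 1043, 1088 and 1288 at stage 9 in mice 1, 2 and 3. Every mouse was higher at stage 9 than any mouse was at stage 8, and the step was 1.31 ± 0.12 on the log2 scale (SE, edgeR adjusted p = 6.7e-11). Before it, Ddx4 was at 466 ± 53.4 at stage 1, with its lowest mean of 307 ± 62.7 at stage 3. After it, the level was 786 ± 124 at stage 12, and the change from the earliest to the latest stage was 1.12 ± 0.12 (edgeR adjusted p = 6.67e-11), higher in 3 of 3 mice. In single cells the 10th percentile at stage 9, 6.24 UMIs per 10000, lay above the median of 4.17 at stage 8. Per ERCC UMI the step from stage 8 to 9 was 2.49 (edgeR adjusted p = 1.6e-15).

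From stage 9 to stage 10, where Dazl fell, Ddx4 was at 1139 ± 130 and 1110 ± 187 CPM, a step of 0.04 ± 0.12 that was not called (edgeR adjusted p = 0.857). Over the 36 sums, centred on the mean of each mouse, the correlation of their log2 levels was -0.53. Ddx4 and Ybx2 had a correlation of 0.85, Dazl and Pum2 one of 0.92, Dazl and Cpeb1 one of 0.82, and Nanos3 and Lin28a one of 0.83. These sums share mice and libraries, and genes measured as shares of one total are not independent, so the correlations describe the sums and carry no p-value.

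Nanos3, which protects spermatogonia and early germ cells (chr8:84173731-84185217, minus strand), gave most of its UMIs at stage 1. It gave 31.3, 50.7 and 55.8 CPM at stage 1, and 0.560, 3.77 and 3.20 at stage 2, so that all mice were lower at stage 2. This was 99 UMIs in 72 cells against 8 in 119 cells, a ratio of 0.0450 per autosomal UMI (exact 95% confidence interval 0.0189 to 0.0921, counting error alone). The fitted step was -4.44 ± 0.51 (log2, SE, edgeR adjusted p = 1.15e-07). Stages 4 to 8 held 0 Nanos3 UMIs among 4244909 autosomal UMIs, which allows a level of up to 0.707 CPM, and stage 12 held 3, a ratio to stage 1 of 0.00634 (0.00129 to 0.0191).

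Lin28a, a pluripotency-associated binder of let-7 precursors (chr4:134003330-134018841, minus strand), had its larger fall from stage 2 to 3, and Nanos3 from stage 1 to 2. Its level was 203, 282 and 239 CPM at stage 1, 56.0, 121 and 80.7 at stage 2 and 4.87, 5.47 and 4.42 at stage 3. None of these groups overlapped. It fell by 1.57 ± 0.20 (log2, SE) from stage 1 to 2 and by 4.06 ± 0.34 from stage 2 to 3 (edgeR adjusted p = 1.6e-07 and 5.05e-11). The first of these was not called without the mouse as a block (-1.52, edgeR adjusted p = 0.0592) or with reads (-1.57, edgeR adjusted p = 0.0806). From the earliest to the latest stage it fell by 6.21 ± 0.28 (edgeR adjusted p = 3.11e-21), while Nanos3 fell by 6.87 ± 0.59 (edgeR adjusted p = 9.46e-12), both in 3 of 3 mice. The Nanos3 change rests on the 3 UMIs of stage 12, which were 2, 0 and 1 in mice 1, 2 and 3. Without mouse 1 it was -7.85 and rests on 1 UMI of that stage. Exons of Lin28a overlap those of Gm13061 on the other strand in the annotation, and the sources used here do not say whether reads were counted by strand.

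Within stage 1, 37 of 72 cells held a Nanos3 UMI and 65 held a Lin28a UMI, 34 of them both, at a median depth of 26937.5 UMIs. At stage 2, with a median of 29443 UMIs, 7 of 119 cells held Nanos3 and 89 held Lin28a. At stage 3, with 14958 UMIs, the counts were 1 and 11 of 153 cells. In stage 12, whose cells had a median of 78605.5 UMIs, 2.02% of cells held Nanos3 and 17.9% held Lin28a. Whether these UMIs were free RNA or RNA of the cells was not tested. After thinning every cell to 3000 UMIs, the share of cells with Lin28a was 42.4% ± 10.1 at stage 1, 22.1% ± 8.22 at stage 2, 2.61% ± 0.79 at stage 3. It was 0 of 114 cells at stage 12, which allows up to 2.63% of cells with a Lin28a UMI at this thinned depth and sets no limit on cells with the mRNA. The same shares for Nanos3 were 10% ± 5.07, 1.94% ± 1.86, 0 of 152 cells (up to 1.97% with a UMI at this depth) and 0 of 114 (up to 2.63%).

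Cpeb1, the cytoplasmic polyadenylation element binding protein (chr7:81347026-81455465, minus strand), had a maximum on each side of a dip. The mice gave 35.1, 53.5 and 47.8 CPM at stage 1, 245, 309 and 278 at stage 5, 42.6, 56.4 and 49.4 at stage 7, 137, 146 and 151 at stage 8 and 10.9, 16.2 and 8.44 at stage 12. The values of stages 5, 7 and 8 did not overlap, and stage 7 overlapped with stage 1. The change from stage 6 to 7 was -1.94 ± 0.28 (log2, SE, edgeR adjusted p = 3.47e-06) and that from stage 7 to 8 was 1.71 ± 0.24 (edgeR adjusted p = 1.61e-06). Both kept their call without each mouse in turn, and per ERCC UMI they were -2.03 and 2.30. With sums of at least 20 cells the first was -1.42 and not called (edgeR adjusted p = 0.0811). The dip rests on 38 UMIs over the 3 mice at stage 7, against 233 at stage 5 and 221 in stage 8. Between stages 1 and 12 Cpeb1 fell by 1.68 ± 0.23 (edgeR adjusted p = 1.61e-08), but per ERCC UMI the change was -0.36 (edgeR adjusted p = 0.242). Stage 5 is also the stage with the highest preleptotene and Sertoli marker levels given above. The part of either kind of cell in the Cpeb1 level was not tested.

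Pum2, a Pumilio repressor of mRNAs (chr12:8674134-8752581, plus strand), had the smallest change of the 8 genes between the earliest and the latest stage with autosomal UMIs and TMM factors, an order that did not hold with ERCC, where Cpeb1 (-0.36) and Dazl (-0.69) were smaller, or with even-autosome UMIs, where Ddx4 (0.75) and Boll (0.87) were smaller than Pum2 (-0.95). The mice gave 133, 161 and 176 CPM at stage 1, at 250, 322 and 328 at stage 7 and at 75.9, 102 and 71.6 at stage 12. None of these groups overlapped, and the means were 157 ± 22.0, 299.9 ± 43.5 and 83.1 ± 16.3. The change between stages 1 and 12 was -0.59 ± 0.15 (log2, SE, edgeR adjusted p = 0.000624), lower in 3 of 3 mice. This direction holds for the share of mRNA and not for the amount per cell: with ERCC as the library size it was 0.71 (edgeR adjusted p = 0.00262), less than the median of all genes on that scale. With reads in place of UMIs it was -0.28 (edgeR adjusted p = 0.32). From stage 9 to 10 Pum2 fell by 0.68 ± 0.15 (edgeR adjusted p = 0.000524) with autosomal UMIs as the library size. With reads the fall was not called (-0.72, edgeR adjusted p = 0.071), and with ERCC as the library size the sign turned (0.24, edgeR adjusted p = 0.328).

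Ybx2, the germ cell Y-box protein that stores mRNA (chr11:69935796-69941605, plus strand), rose most of the 8 between the earliest and the latest stage. Its level was 125, 273 and 435 CPM at stage 1, at 742, 1084 and 1047 at stage 8, at 1252, 1625 and 2184 at stage 9 and at 1512, 3436 and 3018 at stage 12 in mice 1, 2 and 3. Stages 8, 9 and 12 did not overlap with stage 1, and mouse 1 had the lowest value at each of these 4 stages. From the earliest to the latest stage Ybx2 rose by 3.66 ± 0.17 (log2, SE, edgeR adjusted p = 2.4e-21), higher in 3 of 3 mice. Of its steps, that from stage 8 to 9, 0.88 ± 0.15 (edgeR adjusted p = 1.43e-05), kept its call without each mouse in turn but not without the mouse as a block (0.90, edgeR adjusted p = 0.145). Per ERCC UMI the level relative to stage 1 was -0.47 ± 0.29 at stage 7, 2.76 ± 0.66 at stage 9 and 4.99 ± 0.18 in stage 12.

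Both ends of the Ybx2 range carry a known limit. At stage 1 its level differed between mice in the same direction as the summed level of 11 pachytene markers, which ran from 269 to 882 CPM in single mice. In mouse 3 the gate library gave 604 CPM at stage 1 and the index library 216, against 3050 and 2925 at stage 12. This difference was not confined to stage 1. The gate and index libraries gave 753 and 321 CPM at stage 3, 1097 and 344 at stage 5 and 2271 and 1971 at stage 9. The part of RNA from later cells in these levels was not tested. At stage 12 mouse 1, whose UMIs of 4 bases allow 256 different tags, had 29 of 53 cells with more than 128 Ybx2 UMIs. In the deposited table of transcripts, where repeated use of a tag is corrected, Ybx2 at stage 12 was 2188, 3537 and 3152 CPM, so mouse 1 moved from 1512 to 2188.

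Of the 8 genes, 3 (Boll, Ddx4, Ybx2) were called higher and 5 (Dazl, Nanos3, Lin28a, Cpeb1, Pum2) lower when stage 12 was set against stage 1 (edgeR quasi-likelihood test, Benjamini-Hochberg adjusted p under 0.05 over all genes). The share of all 10861 genes tested was 37.4% higher and 39.6% lower, so that being called is common in this comparison. The median absolute change was 1.82 on the log2 scale for the 8 genes and 1.40 for all genes tested. All 8 differed over the 12 stages by the F test, as did 96.1% of all genes. The levels in CPM carry no normalization factors, while the fitted changes do. With even-autosome UMIs as the library size and no such factors, the median change of all genes moved by -0.35, and the 8 calls were the same.

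Between neighbouring stages, 14 rises and 16 falls were called among 88 tests (8 genes, 11 steps). From stage 1 to 2, 1 gene rose and 3 fell, against 13.3% and 14.9% of all genes. From stage 2 to 3, 2 rose and 1 fell (9.71% and 11.2%), and from stage 3 to 4, Cpeb1 rose (2.89% of genes rose and 4.67% fell). From stage 4 to 5, 3 rose (10.2%, with 10.5% falling), namely Boll, Cpeb1 and Ybx2. In mouse 3, Cpeb1 was higher at stage 5 in both libraries, while Boll and Ybx2 were higher in the gate library only. In the index library Boll went from 60.2 to 9.84 CPM (6 and 1 UMIs) and Ybx2 from 552 to 344. From stage 5 to 6 no change was called by edgeR or DESeq2, while 2.85% of genes rose and 2.85% fell, and Cpeb1 and Dazl were the 2 genes with an unadjusted edgeR p under 0.05. From stage 6 to 7, Boll and Cpeb1 fell (8.07%, with 7.18% rising), and from stage 7 to 8, Dazl, Cpeb1 and Ybx2 rose (10.4%, with 7.02% falling). The step from stage 8 to 9 had the most calls, with Boll, Ddx4 and Ybx2 higher (18.4%) and Dazl, Cpeb1 and Pum2 lower (15.1%). With ERCC as the library size these 3 falls turned into called rises, of 0.73, 0.54 and 0.71 on the log2 scale (edgeR adjusted p = 0.000548, 0.0455 and 0.00352). From stage 9 to 10, Ybx2 rose (15.5%) and Dazl, Cpeb1 and Pum2 fell (8.77%). At this step Dazl alone of the 3 was also called lower with ERCC (-0.56, edgeR adjusted p = 0.00833), where Cpeb1 had 0.15 and Pum2 0.24, neither called. Dazl and Cpeb1 also fell from stage 10 to 11 (0.819%, with 1.74% rising) and from stage 11 to 12 (1.89%, with 5.37% rising).

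Many of these smaller steps rest on all 3 mice together. Where 30 steps were called with all mice and the block, the number called was 24 without mouse 1, 19 without mouse 2, 16 without mouse 3 and 16 without the mouse as a block. Of the 30, 7, 11, 14 and 14 lost their call in these fits, and 12 kept call and direction without each mouse in turn. Those 12 were the first step of Nanos3, both steps of Lin28a, 4 steps of Cpeb1 (2 to 3, 6 to 7, 7 to 8, 11 to 12), 2 of Dazl (9 to 10, 11 to 12), and 1 each of Ddx4 (8 to 9), Ybx2 (8 to 9) and Pum2 (9 to 10). With ERCC as the library size, 10 of the 12 kept their call as well. The exceptions were the Cpeb1 step from stage 2 to 3, at 0.29 (edgeR adjusted p = 0.271), and the Pum2 step.

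**Figure D3:**
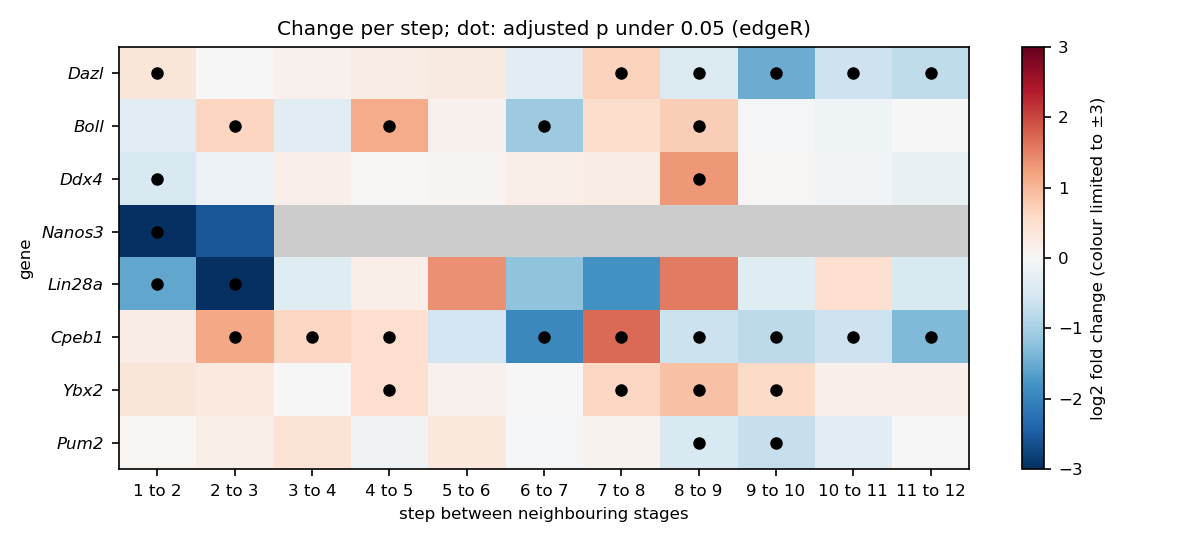
Log2 fold change (colour, limited to ±3) of each gene (rows) for each of 11 steps between neighbouring stages (columns), with a dot where the adjusted p was under 0.05. Grey marks steps in which both stages held at most 3 UMIs. The 30 dots are densest from stage 8 to 10, where Ybx2 is higher and Dazl, Cpeb1 and Pum2 are lower at each step with autosomal UMIs as the library size; with ERCC the falls of all 3 turn at 8 to 9 and those of Cpeb1 and Pum2 at 9 to 10.

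The genes can be put in order by the mean stage at which their mRNA lay, weighting each stage by the level in CPM. This was 1.24 ± 0.16 for Nanos3, 1.93 ± 0.27 for Lin28a, 5.64 ± 0.12 for Cpeb1, 5.92 ± 0.09 for Dazl, 6.04 ± 0.04 for Pum2, 7.29 ± 0.24 for Boll, 7.83 ± 0.06 for Ddx4 and 8.91 ± 0.18 for Ybx2 (SD, n = 3 mice). All 28 pairs of genes stood in the same order in the 3 mice. Dazl and Pum2 were the closest neighbours, at 6.02 and 6.05 in mouse 1, 5.90 and 6.09 in mouse 2, and 5.83 and 5.997 in mouse 3. Their means differed by little more than the spread between mice. With sums of at least 20 cells, or with the transcripts table, 27 of 28 pairs kept a common order. The order is one of shares in CPM. It was not computed per ERCC UMI, and whether it holds on that scale was not tested.

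**Figure D4:**
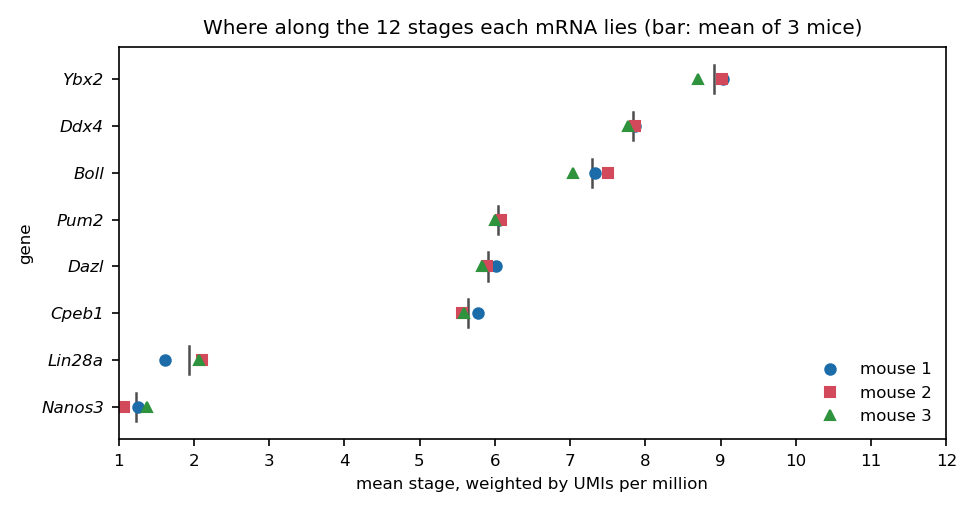
Mean stage of each mRNA, weighted by CPM (x axis, stages 1 to 12), for the 8 genes (y axis); points are mice and bars their mean. Nanos3 and Lin28a lie at 1.24 and 1.93, Cpeb1, Dazl and Pum2 between 5.64 and 6.04, and Boll, Ddx4 and Ybx2 between 7.29 and 8.91.

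At an equal depth of 3000 UMIs per cell the genes also differed in how many cells showed them. Cells with fewer UMIs were left out, 29 of 116 at stage 7 and at most 8 at any other stage. The share of cells with Dazl was 98.6% ± 2.41 at stage 1, 100% at stage 9, 91.4% ± 7.51 at stage 10, 83.4% ± 8.70 at stage 11 and 63.5% ± 6.32 in stage 12, where all cells held a Dazl UMI before thinning. That of Ddx4 was 52.0% ± 5.41 at stage 3 and 96.5% ± 3.35 in stage 9. Ybx2 was in 59.8% ± 26.7 of cells at stage 1 and in 100% in stage 12. For Cpeb1 the share was 50.1% ± 20.9 at stage 5, 16.1% ± 13.1 at stage 7, 28.5% ± 6.14 at stage 8 and 1.39% ± 1.22 in stage 12, and before thinning 81.6%, 26.3%, 62.4% and 49.0%. The mean Cpeb1 shares at stages 5, 7 and 8 stood in the order of its levels, but single mice did not: the shares were 27.3%, 68.2% and 54.8% at stage 5 in mice 1, 2 and 3, 7.69%, 31.2% and 9.38% in stage 7 and 34.0%, 21.9% and 29.8% in stage 8, so that the ranges of all 3 stages overlapped.

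**Figure D5:**
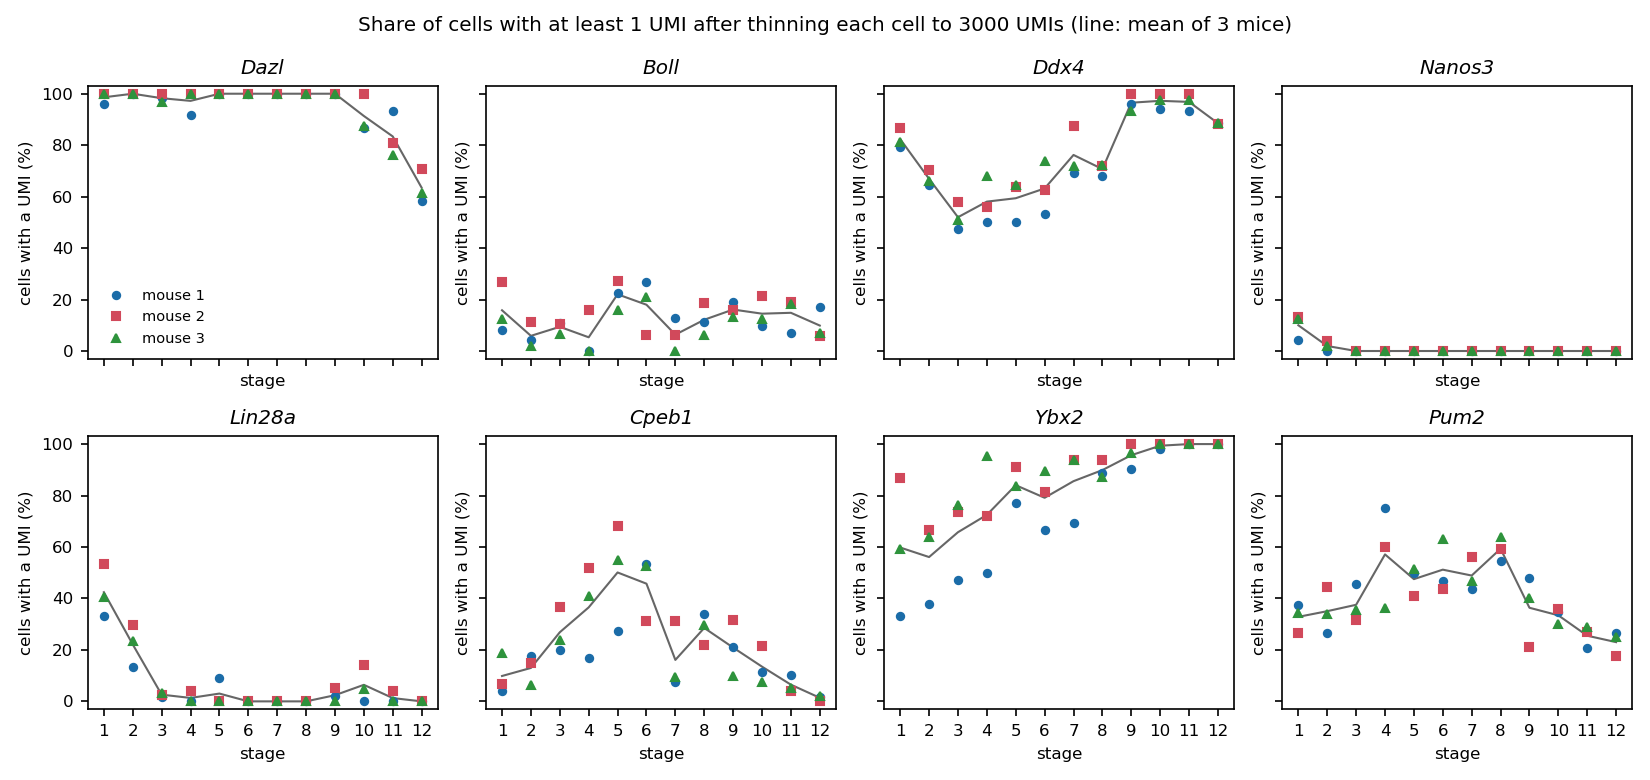
Share of cells with at least 1 UMI of each gene (y axis, percent) by stage (x axis) after every cell was thinned to 3000 UMIs; points are mice and the line is their mean. Ddx4 and Ybx2 approach all cells from stage 9 on, Dazl goes down from stage 10 to 63.5% at stage 12, and Nanos3 and Lin28a are near 0 from stage 3 on.

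Relatives of the 8 genes were followed in lists of known function. Of 9 paralogues, 7 were tested, and 4 rose and 1 fell from the earliest to the latest stage, with a median change of 0.58 against -0.07 for all genes tested (37.4% higher, 39.6% lower). Nanos1 fell by 6.97 ± 0.50 on the log2 scale (66.4 ± 8.36 to 0.516 ± 0.464 CPM, edgeR adjusted p = 8.78e-16). Ybx3, a Y-box protein that acts with YBX2 in spermatids, rose by 4.14 ± 0.18 (185 ± 87.0 to 2445 ± 904 CPM, edgeR adjusted p = 1.34e-21). Cpeb2 rose by 3.54 ± 0.21 (29.3 ± 13.5 to 269.6 ± 35.5, edgeR adjusted p = 7.13e-18), the opposite direction to Cpeb1, and Ybx1 by 1.68 ± 0.14. The direction of the genes named from these lists was the same with median-ratio, ERCC and even-autosome scaling.

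Among 20 tested RNA-binding proteins of germ cells beyond the 8, 11 rose and 9 fell, with a median change of 0.66. Of all genes tested, 37.4% were higher and 39.6% lower. The genes named next had the largest changes of the list and all fell, while the largest rise in it was 3.05 ± 0.23. Igf2bp1, an mRNA-stabilizing protein of fetal and stem cells, fell by 7.18 ± 0.31 (316 ± 88.8 to 1.61 ± 0.27 CPM). Fmr1, whose gene lies on the X chromosome, fell by 5.41 ± 0.26 after a maximum of 873 ± 38.0 at stage 6, and Elavl2 fell by 4.32 ± 0.31 after 258.5 ± 137 at stage 5. Dnd1, a cofactor of NANOS proteins, fell by 3.19 ± 0.26 from 121 ± 24.8 at stage 1.

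Of 15 tested partners in control of the poly(A) tail and the cap, 7 rose and 4 fell, with a median of 0.31 (all genes tested: 37.4% higher, 39.6% lower). Trim71, a let-7 target and repressor of mRNAs, fell by 8.82 ± 0.44 (209.5 ± 127 to 0.217 ± 0.216 CPM). Pabpc2, a testis poly(A)-binding protein, rose by 5.65 ± 0.29 (17.0 ± 10.8 to 646 ± 76.0), Papolb, the testis-specific cytoplasmic poly(A) polymerase, by 3.81 ± 0.32 (7.86 ± 4.41 to 87.1 ± 8.01), and Pabpc1, the poly(A)-binding protein that DAZL recruits, by 1.80 ± 0.22. The adjusted p was at most 1.85e-09 among these 4 (edgeR).

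Of 4 mRNAs known to be bound by DAZL or CPEB1, Sycp3, Ddx4 and Sycp1 rose and Tex19.1 fell (all genes tested: 37.4% higher, 39.6% lower). Ddx4 is itself among the 8 genes. Sycp3, of the synaptonemal complex, stood at 313 ± 10.3 CPM at stage 1, 4781 ± 1098 at stage 8 and 824 ± 80.2 in stage 12. Sycp1 was highest at stage 7, at 3865 ± 830, and Tex19.1 was highest at stage 1, at 413 ± 89.0, and at 43.8 ± 3.97 at stage 12. Sycp3 and Dazl thus had their maxima at the same stage in CPM.

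For each of the 8, the 3 genes of most similar course were taken by Pearson correlation over the 36 sums, centred on each mouse. Epm2aip1 (r = 0.95), Tmed2 and Ctsl were most like Dazl, Epm2aip1 being at 50.3 CPM at stage 1, 151 ± 3.89 at stage 8 and 7.66 in stage 12. Rpl10l, an autosomal copy of an X-linked ribosomal protein gene, was most like Ddx4 (r = 0.95) and stood at 320 CPM at stage 1 and 1055 ± 145 in stage 10. Hspa2, a chaperone of pachytene cells, was most like Ybx2 (r = 0.98), Upp1 most like Nanos3 (r = 0.95), Afp most like Lin28a (r = 0.91), Syngr2 most like Cpeb1 (r = 0.92) and Mphosph8 most like Boll (r = 0.83). All 3 genes most like Pum2 (Gm364, Fmr1nb, Prdx4) lie on the X chromosome, whereas Pum2 lies on chromosome 12. Gm364 (r = 0.95) had 40.6 CPM at stage 1, 888 ± 198 at stage 7 and 10.4 in stage 12, a wider range than that of Pum2.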

How the data were processed

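Single cells from the testes of 3 Dazl-GFP mice were measured by SORT-Seq in 11 libraries. The authors deposited counts of UMIs and of reads for each gene in each well, and transcripts, which are estimated counts (UMIs corrected for repeated tags). BWA 0.7.10 and the build mm10 are named in the submitters' processing notes, with no role or order, and the counting tool is not given in the sources used here. No other columns of samples were present (0 left unused). In mouse 1 the transcripts table has its wells in another order, and they were matched by profile (768 of 768 mutual best matches, lowest r 0.973). Estimated counts were rounded before tests. That table lists Nanos3 at 0 in mouse 1, where 32 UMIs were counted.

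The 8 genes and all gene lists were chosen with earlier results of these data known. A well was kept if it held 1000 or more UMIs. As each well received 1 sorted cell, doublets were not removed. Stages came from odd-numbered autosomes without the 8 genes and without listed and marker genes (1500 variable genes seen in at least 20 cells, Seurat 5.3.0 anchors with 15 dimensions, scanpy 1.11.5, Leiden resolution 1.0), ordered by diffusion pseudotime. The order began at the stage in which markers of undifferentiated spermatogonia were on average the most raised over the other cells. A stage needed at least 10 cells in at least 2 mice and a median UMI count of at least 1/3 of that of all kept cells. The depth rule was set after the clusters were seen, and clusters of 65, 39, 38 and 82 wells fell under it. A stage took the class whose markers were on average the most raised in it over the other cells, if at least 3 of them were detected (in 10% of its cells) and no other class had as many among its 10 leading genes. Stages 3, 8, 10 and 11, whose leading genes held no marker of any class, were named from the raised markers alone.

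Counts were summed per mouse and stage. Changes were tested with edgeR 4.0.16 (quasi-likelihood, TMM factors, autosomal UMIs as library size, the mouse as a block, R 4.3.3) over the 10861 genes that passed filterByExpr, with Benjamini-Hochberg adjustment over all of them. The mouse is the replicate. The block pairs sums of the same animal: deviations from the stage means correlated within mice 1, 2 and 3 with a mean r of 0.73, 0.38 and 0.55. DESeq2 1.42.0 was an alternative. On counts simulated for the latest against the earliest stage (10861 genes, 200 of them changed), the test recovered 13.4% of changes of 1.5-fold, 62.7% of 2-fold and 86.4% of 4-fold, and called 0.188% of unchanged genes. In the data 37.4% of genes were called higher and 39.6% lower in this comparison. With 200 changed genes, the simulation cannot give the rates of recovery or of false calls under so broad a change. Named were the 8 genes, eGFP, up to 4 called genes per list with the largest changes and, per gene, the 3 with the highest correlation of log2(CPM + 1). Intervals on counts are exact at 95%. Total UMIs by mouse were 16682671, 5866174 and 18032562, which are not the library sizes of the fits.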

Additional observations from a re-analysis of the deposited data

Results flagged for a closer look

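Wells outside the 12 stages were used in no comparison, and all 5 groups of such wells held Dazl UMIs above the limit that a count of 0 allows. In 11 wells led by protamine genes (Prm1, Prm2), markers of elongating spermatids, Dazl was at 1519 CPM (316 UMIs), against 292 ± 34.6 at stage 12, the latest stage. These wells also held 3 Nanos3 UMIs and 212 Ybx2 UMIs. In the 4 groups of low depth Dazl was at 1242 CPM (65 wells), 544.6 (39 wells), 1749 (38 wells) and 1271 (82 wells). Of these, the group of 82 wells had Ybx2 at 2452 and Ddx4 at 1153 CPM, and the group of 38 wells was the highest in Dazl. No test was made on these groups, and whether wells with the protamine genes held RNA of more than 1 cell was not tested.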

How the results depend on the processing

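The change from the earliest to the latest stage was recomputed for the 8 genes under 16 alternatives, which gave 127 fold changes. Of these, 124 kept direction and call, 2 lost the call (Cpeb1 with ERCC as the library size, -0.36, and Pum2 with reads, -0.28), and 1 reversed (Pum2 with ERCC as the library size, 0.71). The count of genes called lower was 5 and became 3 with ERCC. With the transcripts table Nanos3 could not be tested. Counts of steps between neighbouring stages, an alternative added after the data were seen, went from 30 to 16 without the replicate block and to 24, 19 and 16 without mouse 1, 2 and 3 in turn. The mouse block changed no call of the earliest against the latest stage. Steps that reversed with ERCC as the library size were Boll from stage 2 to 3 (-0.27), Cpeb1 from stage 8 to 9 (0.54) and 9 to 10 (0.15), Dazl from 8 to 9 (0.73) and Pum2 from 8 to 9 (0.71) and 9 to 10 (0.24). The Boll step from 6 to 7 reversed with sums of at least 20 cells (0.023). The cause was not tested. eGFP was at 1.30 UMIs per 1000 Dazl UMIs, 0.352 with reads, and 1.04 to 1.51 when each mouse was left out. Among all genes tested, the share of called genes that were higher was 48.6%, and 75.8% with ERCC as the library size, 39.1% with even-autosome UMIs and 53.5% with transcripts. Genes of few UMIs (Nanos3 after stage 2, Lin28a after stage 3, eGFP) are limited by depth.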
